A study of Mus musculus with 4 samples.

Results

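Marker genes of cells other than Treg cells were followed through RNA-seq of Treg cells sorted from the large intestine (LI). The list held 48 names that stand for epithelial, plasma and B, myeloid, granulocyte, mast, CD8 and NK, stromal, endothelial, enteric nerve and red cells. Of these, 47 matched a gene of the table, which lists 53379 genes, and the name Itgax-free matched none. The libraries were 2 control libraries from Foxp3Cre-YFPSetd2f/+ mice and 2 KO libraries from Foxp3Cre-YFPSetd2f/f mice, all on the C57BL/6 strain. The sample labels write the 2 genotypes as Setd24flox/+Foxp3-YFPcre and Setd24flox/floxFoxp3-YFPcre. Each library was a pool of CD3+CD4+YFP+ cells from 2 to 3 littermates at steady state, so the spread within a group is that between pools. The methods give an age of 6 to 12 weeks for mice of the study unless stated otherwise, and mice of both sexes. Both groups expressed Cre together with YFP under the control of Foxp3, and the controls were heterozygous for the floxed Setd2 allele, with 1 intact copy.

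The lamina propria of the large intestine is rich in plasma cells, which secrete IgA, and in macrophages, and it lies under an epithelium of absorptive, goblet and enteroendocrine cells. Tissue has to be digested with enzymes to free its T cells, and cells that break during this step release RNA. A sorted sample can therefore hold RNA of other cells, either as whole cells that passed the gate or as RNA carried over in the fluid, and some genes used as markers of another cell type are also expressed by T cells.

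The values are FPKM, which divide the fragments of a gene by its transcript length and by the mapped fragments of the library, so levels of different genes can be compared per length. All 4 libraries followed nearly one distribution of values, as quantile normalization gives. The deposited values may therefore have been reshaped after this division, which bears on comparisons between libraries. Library depth is unknown from these values, and no interval for counting error can be given. Control 2 listed 5437 genes at 0.01 or 0.02, where control 1 listed 0, KO 1 502 and KO 2 528, so values this low in control 2 were not read as a difference. In bulk samples, fewer cells of a type and less RNA per cell cannot be told apart. The targeted gene Setd2, on chromosome 9, was listed at 38.19 and 27.36 in control 1 and 2 and at 26.33 and 36.30 in KO 1 and 2. The groups overlapped, so its level does not check the genotype labels.

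Genes of the sorted cells were high in all libraries, with 1 exception. Cd3e, a subunit of the T cell receptor complex, had an FPKM of 148.95 and 186.61 in control 1 and 2 and of 172.16 and 161.52 in KO 1 and 2. Cd4 had an FPKM of 162.53, 220.38, 183.42 and 130.75 in the same order, and Ptprc, which encodes CD45, lay between 611.55 and 668.23. Foxp3, the defining transcription factor of Treg cells, was the exception, with an FPKM of 2.62, 5.61, 4.66 and 3.05, a rank between 7800 and 9682 in the table. In contrast, the Treg genes Il2ra, Ikzf2, Ctla4 and Tnfrsf18 lay between 84.12 and 2310.35.

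The level of the 47 markers differed greatly between cell types. Of the 47 genes, 23 had a mean FPKM of at least 1 in control or KO, and 24 did not. The 24 were at or below 1 in every library, and 4 genes, Fabp2, Reg3b, Tpsb2 and S100a9, were listed at 0 in all libraries. For comparison, 16 genes were chosen for tissues outside the gut, such as liver, lung, retina and testis. Of the 16, 9 were listed at 0 in all libraries, among them Amy2b, whose row is annotated as a pseudogene, and 13 stayed below 1. The highest of the 16 was Pomc, the precursor of ACTH, at 2.23, 1.11, 3.38 and 2.33. A mean of 1 to 3 was thus also reached by a gene that is not a marker of gut cells.

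**Figure D1:**
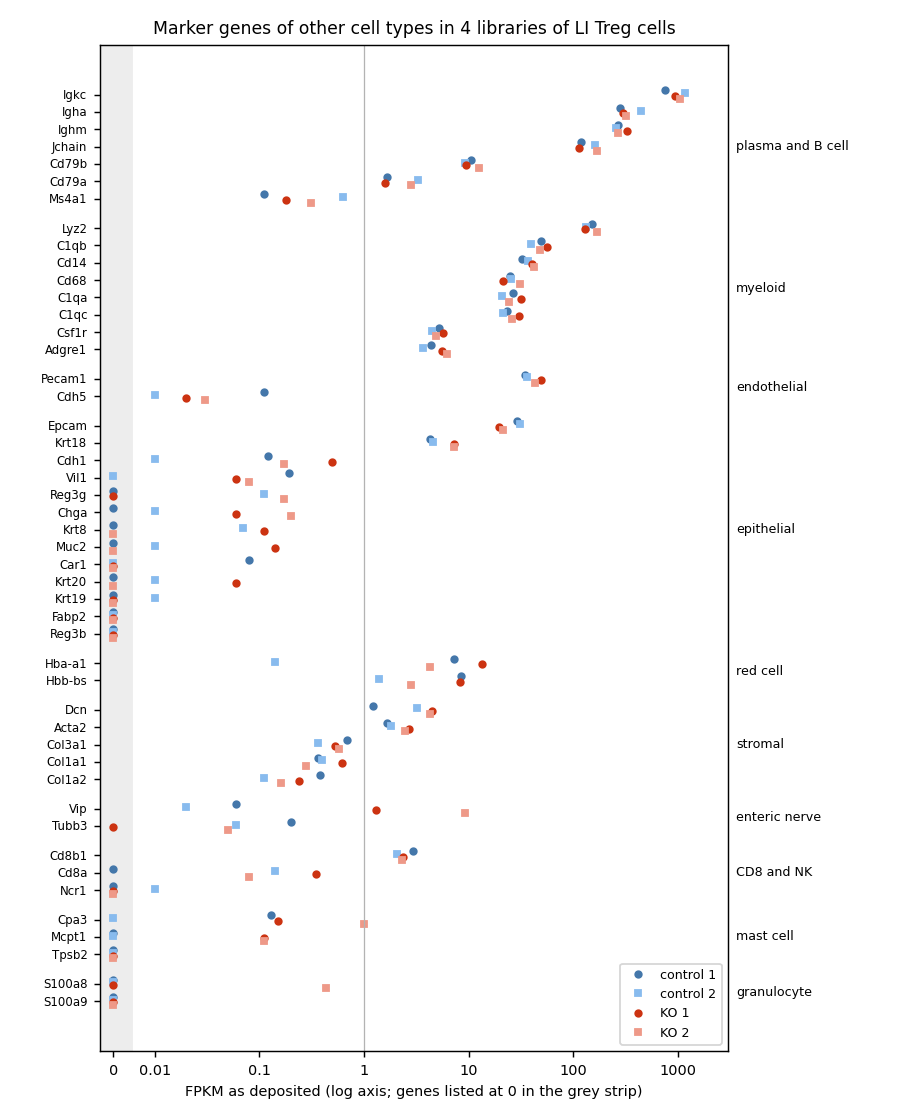
FPKM of the 47 marker genes (rows, grouped by cell type) in control 1, control 2, KO 1 and KO 2, on a log axis with genes listed at 0 in the grey strip. Markers of plasma and myeloid cells lie to the right of 1 in every library except Ms4a1, while 11 of 13 epithelial markers stay below 0.5.

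Summed over the members of a cell type and set against the summed FPKM of 14 Treg and T cell genes, plasma and B cell markers were the largest group. The sum of 7 genes was 13.3% and 18.95% of that of the Treg and T cell genes in control 1 and 2, and 14.6% and 15.7% in KO 1 and 2. The 8 myeloid markers reached 2.94%, 2.63%, 2.75% and 3.02%. Endothelial and epithelial markers followed, at 0.322% to 0.426% and at 0.240% to 0.330%, and each of these sums rested on 1 gene, Pecam1 and Epcam. All other groups were below 0.2% in each library. These shares compare levels of chosen genes and are not shares of cells.

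**Figure D2:**
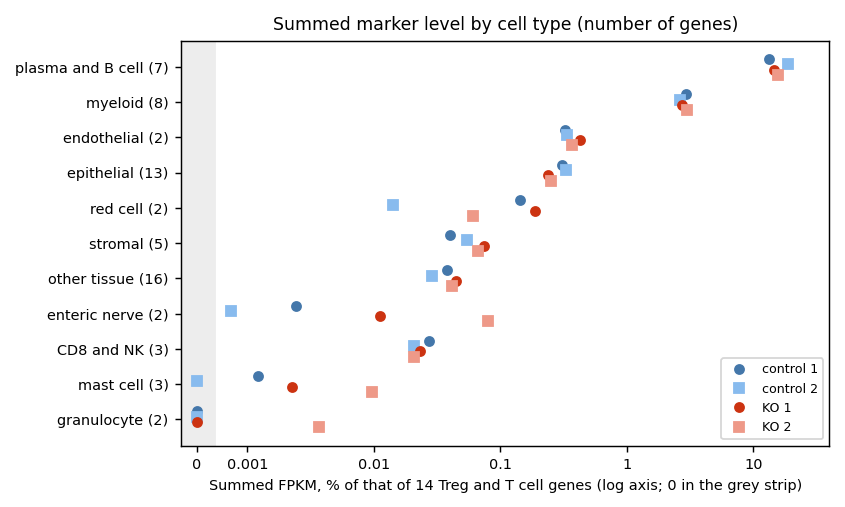
Summed FPKM of the members of each cell type as a percentage of the summed FPKM of 14 Treg and T cell genes (log axis), 1 point per library. Plasma and B cell markers lie between 13.3% and 18.95% and myeloid markers between 2.63% and 3.02%, and the sums of red cell, enteric nerve, mast cell and granulocyte markers lie far apart between libraries of 1 group.

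Plasma and B cell markers comprised the secreted immunoglobulin chains, the J chain that joins IgA and IgM into polymers, and surface proteins of B cells. Igkc, the constant region of the kappa light chain (chromosome 6 of GRCm38, 70726435 to 70726966), was at 752.94 and 1171.45 in control 1 and 2 and at 941.58 and 1046.08 in KO 1 and 2. It ranked between 82 and 147 among all genes of the table, and its level was 0.842 to 1.40 times that of Trac, the constant region of the T cell receptor alpha chain. Igha, the constant region of IgA (chromosome 12, 113254830 to 113260236), had an FPKM of 279.66, 437.82, 296.24 and 319.42, and Ighm, that of IgM (chromosome 12, 113418558 to 113422730), of 268.24, 256.58, 327.59 and 266.21. Jchain (chromosome 5, 88519809 to 88527891) had an FPKM of 118.93, 160.31, 111.97 and 168.57. All 4 genes were high in each library, and control and KO overlapped for each of them.

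The surface genes of B cells were listed far below the secreted chains. Cd79b, a signalling subunit of the B cell receptor, lay between 9.18 and 12.54, whereas its partner Cd79a had an FPKM of 1.65, 3.24, 1.58 and 2.82. Ms4a1, which encodes CD20, lay between 0.11 and 0.63. Among 16 further genes of this lineage, Pax5, the B cell transcription factor, stayed at or below 0.04. Mzb1, a chaperone for immunoglobulin assembly that plasma cells express highly, lay between 1.87 and 2.32, so that Jchain was 48.3 to 85.7 times and Igkc 382 to 626 times as high as Mzb1 in the same library. The ratio of Igkc to Igha was steadier, between 2.68 and 3.28.

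The immunoglobulin signal included variable segments, which were added after the values of the constant genes were seen. In control 1, control 2, KO 1 and KO 2, the 100 Igkv segments summed to 603.14, 1108.35, 824.03 and 1003.23, and so stood in the same order as Igkc. The 113 Ighv segments summed to 468.94, 702.85, 524.87 and 555.70, the order of Igha. Between 44 and 54 Igkv segments and between 43 and 51 Ighv segments were above 1 in each library, so the signal was spread over many segments. Single segments did not all follow these sums. Igkv1-110 had an FPKM of 102.46, 171.36, 44.08 and 87.18, and Ighv1-81 of 83.51, 131.94, 23.67 and 37.33, and both were lowest in KO 1, where the sums of their families were not.

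Lambda chains set control 1 apart. Iglc2, a lambda constant gene, stood at 176.03 in control 1 but at 15.56, 17.16 and 17.06 in control 2, KO 1 and KO 2. The segment Iglv2 was likewise highest in control 1, at 240.53, beside 3.71, 14.74 and 71.98, whereas Iglv1 lay between 124.77 and 137.55 in all libraries. Iglc3 had the lowest value in control 1, with 9.04 beside 62.29, 39.63 and 16.31, and Iglc1 had an FPKM of 109.94, 87.36, 84.89 and 155.07. Iglc2 and Iglc3 differ at 11 bases over the coding part that both share, an identity of 96.5%, and a read from an identical stretch fits either gene. The following bases 29 to 58 are shown because no other stretch of 30 bases holds more of these differences, which capitals mark.
Iglc2: cGtgtttccaccttccTctgaggagctcAa
Iglc3: cAtgtttccaccttccCctgaggagctcCa

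**Figure D3:**
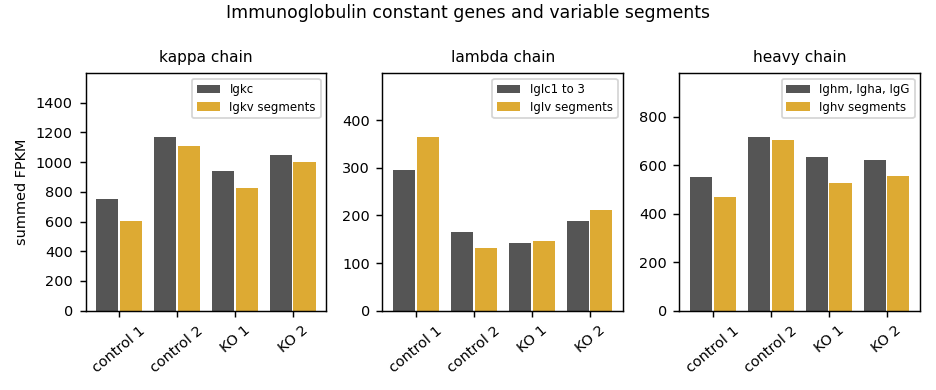
Summed FPKM (bars, axis from 0) of constant genes (grey) and variable segments (yellow) of the kappa, lambda and heavy chains in the 4 libraries. For constant genes and variable segments alike, the kappa and heavy chain bars are highest in control 2 and the lambda bars in control 1, where Iglv segments sum to 365.30.

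Myeloid markers were present in every library, and all 8 were at 3.66 or above. Lyz2, lysozyme of macrophages and granulocytes, was the highest, with an FPKM of 152.14 and 132.22 in control 1 and 2 and of 127.83 and 167.97 in KO 1 and 2. C1qa, C1qb and C1qc encode the 3 chains of complement C1q, a product of tissue macrophages, and lie side by side on chromosome 4 (136880129 to 136898803). C1qb had an FPKM of 49.41, 39.14, 55.78 and 47.44, C1qa of 26.18, 20.67, 31.32 and 24.21, and C1qc of 22.96, 21.30, 30.48 and 25.82. The order of the libraries was nearly the same for the 3 genes, with control 2 lowest and KO 1 highest, and the ratio of C1qb to C1qa stayed between 1.78 and 1.96.

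Cd14, the coreceptor for lipopolysaccharide, had an FPKM of 32.40, 36.83, 40.20 and 41.96, and Cd68, a lysosomal protein of macrophages, of 24.92, 25.14, 21.36 and 31.01. The defining receptors of macrophages were lower. Csf1r, the receptor for CSF1, lay between 4.42 and 5.69, and the exons of Hmgxb3 on the other strand, listed at 6.56 at most, overlap it. Adgre1, which encodes F4/80, had an FPKM of 4.38 and 3.66 in control and of 5.60 and 6.24 in KO, and the groups did not overlap. Of 16 further myeloid genes, 8 were at or above 1 in every library, among them the signalling adaptors Fcer1g, at 24.12 to 33.50, and Tyrobp, at 14.79 to 26.03, and Aif1, which encodes IBA1, at 5.32 to 14.37. Another 6 stayed below 1 in all libraries, among them Itgax and Itgam, which encode CD11c and CD11b, at 0.69 and 0.76 at most, and Clec9a was listed at 0 in all. Cst3, which encodes cystatin C, and Ctss, which encodes cathepsin S, were the highest of that list, at 133.77 to 180.70 and 140.99 to 166.61. Lyz1, the lysozyme of Paneth cells, stayed between 2.08 and 4.71. Its coding sequence is 95.05% identical to that of Lyz2, with 22 differing bases out of 444. Bases 105 to 134 of both are shown to make clear that a read of this stretch can be assigned, and capitals mark the differences.
Lyz2: ggCtggctacTAtggAgtcaGCctggcCga
Lyz1: ggAtggctacCGtggTgtcaAGctggcTga

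Of 13 epithelial markers, Epcam and Krt18 were above 1, and the other 11 were at or below 0.49 in every library. Epcam, an adhesion molecule of epithelia (chromosome 17, 87635979 to 87651129), had an FPKM of 28.65 and 30.81 in control 1 and 2 and of 19.58 and 21.13 in KO 1 and 2. Krt18, a keratin of simple epithelia (chromosome 15, 102028180 to 102032027), had an FPKM of 4.23 and 4.52 in control and of 7.22 and 7.18 in KO. The 2 genes thus lay apart between the groups in opposite directions. Krt8, with which Krt18 forms filaments, had an FPKM of 0, 0.07, 0.11 and 0, and Krt19 and Krt20 were at or below 0.06. Vil1 of the brush border, the goblet cell mucin Muc2, the absorptive markers Car1 and Fabp2, the antimicrobial lectins Reg3g and Reg3b and the enteroendocrine marker Chga were all at or below 0.20, and Cdh1, which encodes E-cadherin, at or below 0.49.

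Among 20 further epithelial genes, 16 stayed below 1 in all libraries. Lgals4, which encodes galectin-4, lay between 11.02 and 20.12. Tph1, the enzyme of serotonin synthesis in enterochromaffin cells, had an FPKM of 9.75 and 8.14 in control and of 4.65 and 3.97 in KO, while Chga and Chgb, the granule proteins of the same cells, were at or below 0.20.

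Pecam1, an adhesion molecule of endothelial cells that many leukocytes also carry (chromosome 11, 106654217 to 106750628), had an FPKM of 34.65 and 36.26 in control 1 and 2 and of 49.25 and 42.72 in KO 1 and 2. The groups did not overlap. Cdh5, the cadherin of endothelial junctions, was at or below 0.11, and of 9 further endothelial genes 6 stayed below 1. Plvap, a protein of fenestrated endothelium, was the highest of these, between 1.17 and 2.27, followed by Cldn5, a claudin of endothelial junctions, between 0.14 and 1.89.

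Red cell markers varied more between libraries of 1 group than between the groups. Hbb-bs, a beta-globin gene on chromosome 7, had an FPKM of 8.39 and 1.38 in the controls and of 8.30 and 2.82 in KO. Hba-a1, an alpha-globin gene on chromosome 11, had an FPKM of 7.15, 0.14, 13.43 and 4.23. Its coding sequence differs from that of Hba-a2 at 1 base of 426, as the following bases 366 to 395 show with the differing base in capitals. The division of reads between these 2 genes is therefore uncertain, and their sum is the firmer value.
Hba-a1: gcatgcctctctggaCaaattccttgcctc
Hba-a2: gcatgcctctctggaTaaattccttgcctc

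Hba-a2 had an FPKM of 9.49, 5.24, 11.13 and 5.36, and the sum of both alpha-globin genes was 16.64, 5.38, 24.56 and 9.59. In both groups library 1 was thus higher than library 2. Hbb-bs and Hbb-bt also differ at 1 coding base, out of 441, and Hbb-bt was listed at 0.80 in control 1 and at 0 in the others. Alas2 and Slc4a1, genes of maturing red cells, were at or below 0.14.

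Stromal markers were low, and none had a mean above 5. Dcn, the matrix proteoglycan decorin, had an FPKM of 1.21 and 3.22 in control and of 4.47 and 4.25 in KO, and Acta2, the actin of smooth muscle, of 1.65 and 1.82 in control and of 2.69 and 2.48 in KO. For both genes the groups did not overlap, and both were too low for the main test given below. Over all genes of that test the groups did not overlap for 47.1%. An alternative fit of all gene types with a mean FPKM of at least 1 included both genes. There the log2 fold change, KO over control, was 0.81 for Dcn and 0.39 for Acta2 (limma adjusted p = 0.437 and 0.554). The fibrillar collagen genes Col1a1, Col1a2 and Col3a1, which fibroblasts express highly, lay between 0.11 and 0.68. Of the wider stromal list, Actg2, another smooth muscle actin, had an FPKM of 6.95 and 5.63 in control and of 3.04 and 2.36 in KO, the direction opposite to that of Acta2, and Sparc, a matrix glycoprotein, lay between 2.48 and 3.89.

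Vip, which encodes vasoactive intestinal peptide of enteric neurons (chromosome 10, 5639218 to 5647617), differed most between libraries. It was listed at 0.06 and 0.02 in control 1 and 2 and at 1.29 and 9.21 in KO 1 and 2. The groups did not overlap, and the level in KO 2 was several times that in KO 1. The neuronal tubulin Tubb3 was at or below 0.20, and all 10 further genes of neurons and glia stayed below 1. Of these, Ret, the receptor for GDNF, was the highest, between 0.57 and 0.98, and the neuronal genes Elavl4 and Chat were at or below 0.02. Vip in the KO libraries was thus the single enteric nerve gene above 1.

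The remaining groups were nearly absent. Cd8b1, which encodes the beta chain of CD8, had an FPKM of 2.96, 2.08, 2.34 and 2.32, while Cd8a was at or below 0.35 and the NK receptor Ncr1 at or below 0.01. The mast cell protease genes Cpa3, Mcpt1 and Tpsb2 were at or below 0.15 in all libraries but KO 2, where Cpa3 was listed at 1. S100a8, which encodes a calcium-binding protein of neutrophils, was listed at 0.43 in KO 2 and at 0 in the other libraries, and S100a9, with which it pairs, at 0 in all. KO 2 was thus the library with the highest value for Vip, Cpa3 and S100a8, but the other members of their groups did not show this. Tubb3 was highest in control 1 at 0.20, Mcpt1 was at 0.11 in both KO libraries, and Tpsb2 and S100a9 were at 0 in all.

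Some genes of the wider lists were nevertheless high. Gzma, which encodes granzyme A of cytotoxic cells, had an FPKM of 218.91 and 290.35 in control and of 563.13 and 872.34 in KO. Nkg7, a protein of cytotoxic granules, had an FPKM of 94.40 and 77.44 in control and of 111.72 and 129.98 in KO. Of the 10 wider CD8 and NK genes, 4 were at or above 1 in every library and 3 stayed below 1 in all. After Gzma and Nkg7 the highest was Tcrg-C1, a T cell receptor constant gene, between 6.79 and 12.24. Kit, the receptor for stem cell factor on mast cells, lay between 11.39 and 18.83, and Hdc, the enzyme of histamine synthesis, between 13.65 and 17.00, although the other 7 mast cell genes of that list stayed below 1. Ccr3, the eotaxin receptor of eosinophils, lay between 6.69 and 11.62, with the other 10 granulocyte genes below 1, of which Prg2, the eosinophil major basic protein, was highest at 0.09 to 0.56.

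Whether the level of these markers differed between the genotypes was then tested with limma on log2(FPKM + 1) over 7647 protein-coding and immunoglobulin constant genes whose mean FPKM was above 5 in control or in KO. Adding 1 understates the change of low genes. The smallest p that an exact permutation test of 1 gene allows with 2 against 2 libraries is 0.333. The p-values given are therefore those of limma, which borrows variance from all genes. They set the difference between groups against a spread between pools that is drawn in part from other genes. Of the 47 markers, 19 entered the test. For 6 of them, Krt18, Csf1r, Adgre1, Vip, Hba-a1 and Hbb-bs, only the KO mean was above 5, so the filter itself favoured a higher estimate in KO.

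None of the 19 markers reached an adjusted p below 0.05 in this fit, where 0.418% of all genes tested did (0.222% higher and 0.196% lower in KO). At an unadjusted p below 0.05, 4 of the 19 passed, 3 higher and 1 lower in KO, where 8.58% and 7.52% of all genes tested did, or 16.1% in both directions together. Epcam was lower, with an estimate of -0.53 on the log2 scale, KO over control (standard error 0.14, unadjusted p = 0.00648 and limma adjusted p = 0.149). Vip was higher by 2.22 (standard error 0.66, limma adjusted p = 0.188), Krt18 by 0.61 (0.21 and 0.227) and Pecam1 by 0.36 (0.13 and 0.254). The estimate of Vip was 1.14 without KO 2 and 3.30 without KO 1. Without KO 1, Vip alone passed at an unadjusted p below 0.05. Without control 1, 3 markers were higher (Vip, Hba-a1 and Hbb-bs) and 2 lower (Epcam and Igha).

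For all plasma, B and myeloid markers tested the intervals included 0. Igkc had a log2 fold change of 0.08 with a 95% interval from -0.39 to 0.55, Jchain of -0.01 with an interval from -0.52 to 0.50, and Igha of -0.19 with an interval from -0.65 to 0.28. The direction of each turned when 1 control library was left out, to -0.24 for Igkc without control 1, and to 0.21 for Jchain and 0.14 for Igha without control 2. Jchain also turned without KO 1, to 0.29. All 8 myeloid estimates were higher in KO, from 0.04 for Cd68 to 0.47 for Adgre1, beside a median of -0.0039 over all genes tested. Csf1r and Adgre1 passed the filter through KO alone, which favoured a higher estimate, and the estimates of Lyz2 and Cd68 turned when 1 library was left out. The 8 genes come from the same 4 libraries, so their shared direction was not tested. The interval was -0.067 to 0.998 for Adgre1, -0.02 to 0.68 for C1qc, whose estimate was 0.33, and -0.069 to 0.555 for Cd14, whose estimate was 0.24. With 2 pools per group, changes within these intervals were not excluded.

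The groups did not overlap for 7 of the 19 markers, with KO above control for 6 (Vip, Krt18, Adgre1, Pecam1, C1qc and Cd14) and below for 1 (Epcam). Over all genes tested these shares were 47.1%, 24.2% and 22.8%. The median log2 fold change of the 19 markers was 0.22, beside -0.0039 for all genes tested, and 6 of the 19 passed the filter through KO alone. Among the wider lists, 20 of 117 genes entered the test and 0 reached an adjusted p below 0.05. At an unadjusted p below 0.05, 8 of the 20 passed, 4 in each direction. Over all genes tested, 8.58% passed as higher and 7.52% as lower in KO, or 16.1% in both directions together. Gzma was closest to the threshold, higher in KO by 1.47 on the log2 scale (limma adjusted p = 0.0513), and over the alternatives its adjusted p ran from 0.00609 to 0.447, so its call depends on the setting. Also higher in KO were Nkg7, Fcgr3, an Fc receptor of myeloid and NK cells, and Ighg1, the constant region of IgG1, which had an FPKM of 0.67, 2.84, 5.25 and 33.98. Lower in KO were Tph1, Kit, Cst3 and Actg2, with log2 fold changes between -0.98 and -0.40. Ighg1 passed the filter through KO alone, and Tph1 and Actg2 through control alone, so the filter itself favoured their directions. The other IgG constant genes did not share the direction of Ighg1. In control 1, control 2, KO 1 and KO 2, Ighg2c had an FPKM of 0.84, 4.31, 0.10 and 0. Ighg2b had an FPKM of 0.28, 10.02, 2.46 and 2.06, and Ighg3 of 1.07, 5.98, 0.32 and 0.

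**Figure D4:**
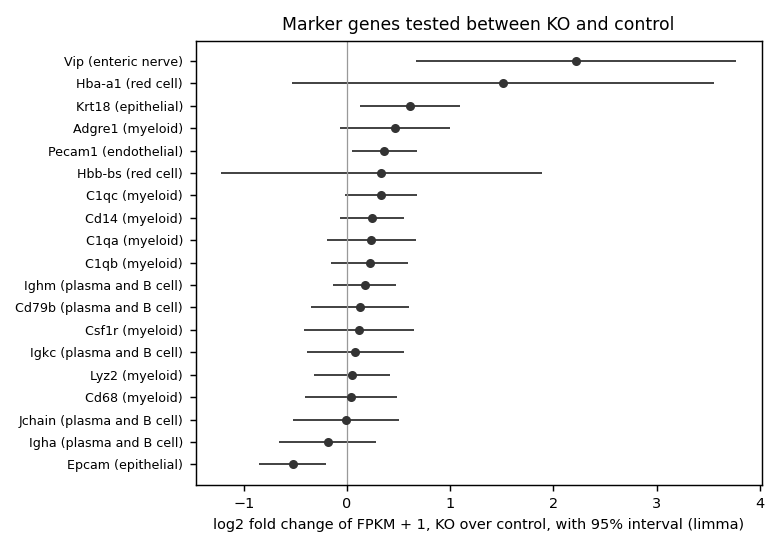
Log2 fold change of FPKM + 1 (KO over control, limma, n = 2 libraries per group) of the 19 markers tested, with 95% intervals as bars. Only the intervals of Vip, Krt18, Pecam1 and Epcam leave out 0, before adjustment over all genes, and those of the globin genes and Vip are the widest.

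The same markers were compared between the libraries numbered 1 and 2 in the titles, which no label describes as collected together. Igkc, Igha, Jchain and Cd79a were higher in library 2 than in library 1 in both groups, as was Ms4a1 at its low level. C1qa, C1qb, C1qc, Csf1r, Hba-a1, Hbb-bs and Ighm were higher in library 1 in both groups, as was Cd8b1. Of the 23 markers with a mean of at least 1, 7 were higher in library 2 in both groups and 8 higher in library 1, and the other 8 followed neither pattern. Among 12594 genes of all types with a mean of at least 1, these shares were 18.5% and 20.5%. Of the 19 tested markers, 6 were higher in library 2 and 7 in library 1 in both groups, beside 17.5% and 18.9% of all genes tested.

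Within a cell type the markers did not always move together. Cd14 and Cd68 were higher in library 2 in both groups, against the 3 C1q genes, and Lyz2 was lower in control 2 than in control 1 but higher in KO 2 than in KO 1. Ighm was highest in KO 1, the library with the second lowest Igkc, and the ratio of Ighm to Igha ran from 0.586 in control 2 to 1.11 in KO 1. The ratios of C1qb to C1qa and of Igkc to Igha varied 1.1-fold and 1.22-fold over the 4 libraries. Other ratios varied more, 1.545-fold for Lyz2 to C1qb and 1.887-fold for Ighm to Igha. The widest of the ratios taken was 2.5-fold, for Lyz2 to the much lower Lyz1.

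**Figure D5:**
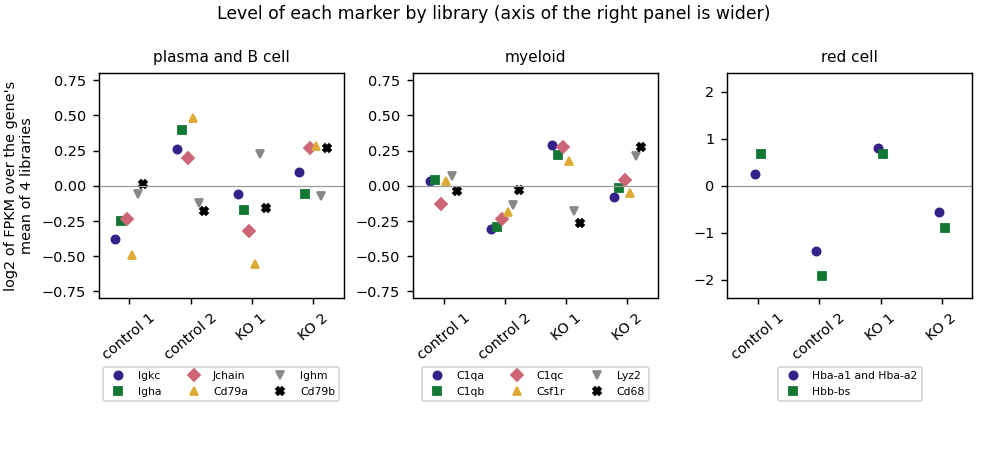
Log2 of each marker's FPKM over its mean of 4 libraries, for plasma and B cell, myeloid and red cell markers (the right panel has a wider axis, and its alpha-globin point is the sum of Hba-a1 and Hba-a2). Igkc, Igha, Jchain and Cd79a stand higher in control 2 and KO 2 than in control 1 and KO 1, whereas the C1q genes and the globin genes stand lower there.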

How the data were processed

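Poly(A) RNA was read in pairs of 150 bp. Per the methods and the submitters' processing notes, the authors used STAR v2.5 for mapping (GRCm38) and RSEM v1.2 with GENCODE M16 for quantification. The deposited FPKM values cover 53379 genes in each of 4 libraries and carry 2 decimals. Of the 5000 highest ranks, 2172 held 1 value in all columns, as quantile normalization gives, a step not named in the sources used here. Depth is unknown, and the count test of the study could not be applied.

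Gene types and positions came from GENCODE M21 of GRCm38, where 53274 identifiers were found. KO was compared with control on log2(FPKM + 1) by limma 3.58.1 (R 4.3.3), with no covariate and a trend, with Benjamini-Hochberg adjustment. Immunoglobulin constant genes were added to the protein-coding genes of the study's filter because 3 members have that type. The fit was tested on simulated data, in which 200 of 7647 genes were changed by 1 on the log2 scale. It recovered 33% of these at an adjusted p below 0.05, so a change of this size can be missed. Transcripts were compared with blastn 2.17.0 and coding sequences base by base, both from GENCODE. Tables were handled in Python 3.11.15.

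The members and lists were chosen with earlier results of these data known. Named genes are the members, the 2 highest of each wider list and those of it with an unadjusted p below 0.05, Foxp3, Cd3e, Cd4, Ptprc and the highest gene of other tissues. The value of 1 gene that this rule covers is not reported here. The variable segments and other genes named were chosen after their values were seen. Deviations of same-numbered libraries correlated at r = -0.299 across genes, and the main fit did not pair libraries by number. With 2 pools per group, this value cannot tell which pools were collected together. Alternatives changed the pseudocount, the filter, the gene types, the scaling, the trend, a block and the libraries used.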

Additional observations from a re-analysis of the deposited data

How the results depend on the processing

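At an adjusted p below 0.05, 17 genes had a higher and 15 a lower level in KO. When low values were left in, these counts were 8 and 3, and 1 marker was called, Mcpt1, at an FPKM of 0.11 in both KO libraries. With all gene types the counts were 5 and 8, with all types and a mean FPKM of at least 1 they were 1 and 3, without a trend 1 and 2, and 23 genes were lower after quantile normalization. With the replicate number as a replicate block they were 16 and 12, with 0 markers called. In that fit Gzma reached an adjusted p of 0.00609 and Ighg1 one of 0.0275. Gzma also passed with protein-coding genes alone and after quantile normalization (0.0475 in both), with the crossed pairing below (0.0144) and without control 2 (0.0135). A crossed pairing of control 1 with KO 2, chosen after seeing the data, gave 220 and 212, with 1 marker lower, Epcam, at an adjusted p of 0.0494 from limma. With 1 library left out in turn, where the lone library is assumed to vary like the other group, the counts ran from 1 to 36 higher and from 1 to 31 lower, with 0 markers called, and at an unadjusted p below 0.05 from 1 to 4 markers were higher and from 0 to 2 lower. Iglc2 reached an adjusted p of 5.03e-05 without control 2 and turned without control 1.

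Of 623 gene estimates under alternatives, 593 kept their direction and side of the threshold, 12 passed it and 18 turned, 16 of these with 1 library left out. The log2 fold change turned within -0.16 to 0.16 for Cd3e (-0.00035 when median-centred and -0.0018 after quantile normalization), -0.22 to 0.30 for Cd68, -0.066 to 0.32 for Cd79b, -0.35 to 0.58 for Hba-a2, -0.66 to 1.32 for Hbb-bs, -0.51 to 0.14 for Igha, -0.24 to 0.40 for Igkc, -0.21 to 0.66 for Iglc1, -3.29 to 0.13 for Iglc2, -0.30 to 0.29 for Jchain and -0.15 to 0.24 for Lyz2. Without its highest gene, the mean sum fell to 0.00128% of the Treg and T cell genes for CD8 and NK markers, 0.000386% for endothelial, 0.0562% for epithelial, 1.54% for myeloid, 6.87% for plasma and B cell and 0.0297% for stromal markers.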
